A study of Mus musculus with 24 samples.

Results

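Pf4, Ppbp, Itga2b, Itgb3, Gp1ba, Gp1bb, Gp9, Gp6 and Vwf are genes by which megakaryocytes and platelets are commonly recognised. They were taken by name as a fixed list of 9 genes among the 25361 genes of the expression table, and all 9 were present in it. They were taken up with it known that they had not followed the myeloid genes in Chd4-deficient LSECs, so that pattern is a description here and not a finding. They were followed in RNA-seq libraries from mouse livers at embryonic day (E) 12.5, in which liver sinusoidal endothelial cells (LSECs) had been pulled out with beads against the endothelial surface protein CD146 and the remaining cells (non-EC cells) were kept as a separate fraction. The study asked what loss of the chromatin remodelling enzymes CHD4 and BRG1 (encoded by Smarca4) in endothelium does to the fetal liver. Both fractions were sequenced for 4 genotypes with 3 replicates each, which gave 24 libraries. The titles of the libraries name no batch.

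The controls were Cre-negative littermates. Chd4-ECko embryos (Chd4fl/fl;Brg1fl/+;VE-cadherin-Cre+) lacked both functional Chd4 copies in endothelium and were also heterozygous there for Brg1. Brg1-ECko embryos (Chd4fl/+;Brg1fl/fl;VE-cadherin-Cre+) had the reverse combination, and Brg1/Chd4-ECdko embryos carried homozygous floxed alleles of both genes with the same transgene. All crosses brought floxed alleles into the controls too, so that controls differed from mutants by the transgene as well as by allele number. VE-cadherin-Cre acts in endothelium and is known to mark blood cells that arise from endothelium as well, so an effect on a blood lineage gene in a mutant library is not by design limited to endothelium. Embryos of both sexes on a mixed background were used.

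Megakaryocytes are the large bone marrow and fetal liver cells that shed platelets, and at mid-gestation the liver is the main site at which blood cells form. Platelets store chemokines and adhesive proteins in alpha granules, catch von Willebrand factor on exposed tissue through the glycoprotein Ib-IX complex, bind collagen through glycoprotein VI and then link to each other when fibrinogen bridges the integrin made of the Itga2b and Itgb3 products. Von Willebrand factor is made by endothelial cells as well as by megakaryocytes, and the Itgb3 chain also pairs with another alpha chain outside the platelet lineage, so these genes are not specific to the lineage.

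The levels are in TPM, a share of each library's transcripts corrected for gene length, so that genes can be compared with each other and each library sums to the same total. The read depth behind a value is unknown. Endothelial genes marked the fractions as labelled: all 12 endothelial genes were higher in control LSECs than in control non-EC cells, with a median log2 difference of 5.07. The mitochondrial share of the TPM ran from 13.9% to 31.5% in LSECs and from 2.33% to 7.69% in non-EC cells. Chd4 stood at 168 to 252 TPM in Chd4-ECko LSECs against 246 to 285 TPM in control LSECs, and Smarca4 at 111 to 157 TPM in Brg1-ECko LSECs against 134 to 161 TPM in controls. In Brg1/Chd4-ECdko LSECs Chd4 was at 242 to 256 TPM and Smarca4 at 117 to 151 TPM. Outside these groups Chd4 reached 351 TPM in LSEC Brg1-ECko replicate 1 and Smarca4 was as low as 99.9 TPM in Chd4-ECko replicate 2. None of these differences from control passed the test, and a gene-level TPM cannot show whether a deleted exon was missing. One library stood apart: LSEC Brg1-ECko replicate 1 held 12314 TPM of Afp, a hepatoblast gene, where the other LSEC libraries held 1267 to 3513 TPM. For the megakaryocyte and platelet genes, fold changes of Brg1-ECko LSECs against control are given with and without that library below. The median correlation of these genes over LSEC libraries, and the correlations of their mean with other gene lists, are given both ways too. Fold changes of the endothelial and hepatoblast genes in Brg1-ECko LSECs are given only with that library.

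The members lie on 5 chromosomes of the GRCm39 assembly. Pf4 (chr5:90918479-90922110) and Ppbp (chr5:90916371-90917930) are neighbours on the plus strand, 548 bases apart with no protein-coding gene between them. Itga2b (chr11:102341397-102360955, 30 exons), Itgb3 (chr11:104498826-104561302) and Gp1ba (chr11:70529948-70532862) share a chromosome without being adjacent. Gp9 (chr6:87755047-87756750) and Vwf (chr6:125523737-125663642, 52 exons) are on chromosome 6, and Gp6 (chr7:4366964-4400743) is on chromosome 7. Gp1bb (chr16:18439067-18441153) lies wholly inside Septin5 on the same strand. The protein-coding gene Gm49601 on that strand also overlaps 1938 of its 2087 bases. Reads of Gp1bb can be shared with both genes, so its values are uncertain. Gm49601 ran from 0 to 3.08 TPM in LSECs, with a median of 0. Gp1ba lies wholly inside Slc25a11 on the opposite strand, and whether reads were counted by strand is not given in the sources used here.

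GATA and ETS factors are transcription factor families that direct megakaryocyte genes. Short words of the kind they bind were searched for in the 250 bases before the start site of each of the 9 members. The promoters of 4 are shown: Gp1ba, Gp6 and Vwf because they hold a GATA word, and Itga2b because it holds 2 ETS words. Capitals mark the words searched on both strands (AGATAA and also TGATAA for GATA factors, AGGAAG and also CGGAAG for ETS factors). Each is printed 5′ to 3′ on the strand of its gene from the GRCm39 genome, for Gp1ba at chr11:70529720-70529969 (plus strand), Vwf at chr6:125529661-125529910 (plus), Itga2b at chr11:102360710-102360959 (minus) and Gp6 at chr7:4400744-4400993 (minus).
Gp1ba: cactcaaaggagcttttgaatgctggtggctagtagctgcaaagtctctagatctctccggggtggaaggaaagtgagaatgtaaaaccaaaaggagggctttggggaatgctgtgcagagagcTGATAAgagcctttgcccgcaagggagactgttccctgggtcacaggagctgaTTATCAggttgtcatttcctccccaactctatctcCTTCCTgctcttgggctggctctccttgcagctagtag
Vwf: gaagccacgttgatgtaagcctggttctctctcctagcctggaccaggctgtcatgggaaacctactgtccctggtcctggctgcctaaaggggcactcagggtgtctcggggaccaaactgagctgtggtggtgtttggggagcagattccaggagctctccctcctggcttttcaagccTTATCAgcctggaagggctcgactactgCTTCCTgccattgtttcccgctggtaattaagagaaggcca
Itga2b: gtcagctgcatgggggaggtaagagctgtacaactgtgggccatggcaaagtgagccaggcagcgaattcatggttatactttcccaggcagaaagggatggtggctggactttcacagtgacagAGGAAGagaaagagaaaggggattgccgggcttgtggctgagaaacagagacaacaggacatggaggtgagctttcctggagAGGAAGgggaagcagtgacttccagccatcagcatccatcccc
Gp6: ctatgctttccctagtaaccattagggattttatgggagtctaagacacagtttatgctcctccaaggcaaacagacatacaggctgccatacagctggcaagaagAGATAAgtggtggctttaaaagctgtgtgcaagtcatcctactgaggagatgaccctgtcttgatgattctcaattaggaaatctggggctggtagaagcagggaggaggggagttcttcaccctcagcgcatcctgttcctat

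The Gp1ba window holds GATA words at positions -126 to -121 and -73 to -68, counted back from the start site, and an ETS word at -38 to -33. The Vwf window has the same kinds of words at -69 to -64 and -41 to -36. Itga2b has ETS words at -125 to -120 and -43 to -38, and Gp6 has a GATA word at -144 to -139. Over all 9 members, 3 windows held a GATA word (Gp1ba, Gp6, Vwf) against 15.973% of 21618 protein-coding promoters, and 5 held an ETS word (Gp1ba, Gp1bb, Gp9, Itga2b, Vwf) against 39.19%. A word bound by RUNX factors (TGTGGT or TGCGGT) was found in 3 windows (Gp1bb, Gp9, Vwf) against 17.855% of all promoters. The promoters of Pf4, Ppbp and Itgb3 held none of these words in the 250 bases. A match of letters describes the sequence and is no measured binding site.

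All 9 genes were lower in control LSECs than in control non-EC cells, and all 9 differences had an adjusted p under 0.05 by limma with Benjamini-Hochberg adjustment over all 13775 genes tested, where 35.8% of all genes passed as lower and 67.1% in either direction. With same-numbered LSEC and non-EC libraries paired as 1 embryo, 8 of 9 had an adjusted p under 0.05, all but Vwf, where 37.4% of all genes then passed as lower and 69.6% in either direction. With the added requirement of a log2 fold change beyond 1 (a differentially expressed gene, or DEG), 8 of 9 were called lower, where 13.3% of all genes tested were DEGs in that direction and 32.7% in either. The levels of control LSECs and control non-EC cells did not overlap for any of the 9, which was so for 75.1% of all genes, 40.2% being lower in LSECs. In bulk libraries fewer cells of a type and less RNA per cell cannot be told apart, so none of these levels is a count of megakaryocytes or platelets.

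Pf4, a chemokine of the alpha granule, was the most abundant member in both fractions. It reached 178, 172 and 193 TPM in the control LSEC libraries and 816, 537 and 792 TPM in the control non-EC libraries. Every non-EC value was therefore well above every LSEC value, a log2 difference of -1.95 (SE 0.43, adjusted p = 0.0005, limma, n = 3 per group). Ppbp, the precursor of another granule chemokine and the chromosomal neighbour of Pf4, stood at 46.5, 41.3 and 46.5 TPM in LSECs and at 212, 123 and 218 TPM in non-EC cells. Its LSEC level was 24.3% of the non-EC level by group means, close to the 25.3% of Pf4.

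The integrin pair that binds fibrinogen followed, with unequal steps. Itga2b, whose product is also found on early blood progenitors, had 49.2, 43.0 and 34.3 TPM in control LSECs and 130, 81.2 and 131 TPM in non-EC cells, so that LSECs held 36.9% of the non-EC level. Itgb3 had 47.1, 35.7 and 32.2 TPM in LSECs and 218, 131 and 220 TPM in non-EC cells, or 20.2%. Both fell past the fold threshold, with log2 differences of -1.40 (SE 0.31) for Itga2b and -2.25 (SE 0.40) for Itgb3.

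The glycoprotein Ib-IX complex is the platelet receptor for von Willebrand factor. Its chain Gp1ba, which contacts that ligand, was at 7.10, 5.97 and 5.21 TPM in control LSECs and at 36.8, 19.6 and 36.3 TPM in non-EC cells (log2 difference -2.12, SE 0.35). Gp9, a small partner chain needed for the complex at the surface, was at 7.24, 6.53 and 6.43 TPM against 21.99, 16.8 and 27.5 TPM. Gp1bb had the lowest LSEC share of the 9, 13.3% of the non-EC level, with 1.18, 1.69 and 1.63 TPM against 14.7, 7.61 and 11.4 TPM. Septin5, the gene that encloses Gp1bb, went the other way, with a mean of 6.94 TPM in control LSECs and 3.38 TPM in control non-EC cells, so it did not move with Gp1bb. Slc25a11, which encloses Gp1ba, had means of 44.6 TPM and 42.6 TPM in the same libraries and did not show the step seen for Gp1ba.

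Gp6, the collagen receptor, was the least abundant member of non-EC cells. It had 1.44, 1.71 and 1.42 TPM in control LSECs and 6.92, 3.64 and 8.34 TPM in non-EC cells (log2 difference -1.48, SE 0.29). Vwf was nearest to equal in the fractions. It had 12.5, 14.5 and 9.71 TPM in control LSECs and 26.0, 14.5 and 27.3 TPM in non-EC cells, and the highest LSEC library nearly met the lowest non-EC library. Its log2 difference of -0.80 (SE 0.33) stayed inside the fold threshold with an adjusted p of 0.0385 by limma. That p was 0.0567 when same-numbered LSEC and non-EC libraries were paired as 1 embryo, and 0.143 when mitochondrial genes were left out of the TPM, a rescaling that moved the median difference of all genes from -0.092 to 0.165. Non-EC control replicate 2 was the lowest of its group for all 9 genes, and without it the log2 difference of Vwf was -1.08 (adjusted p = 0.0119), which took the count of members called from 8 to 9.

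**Figure D1:**
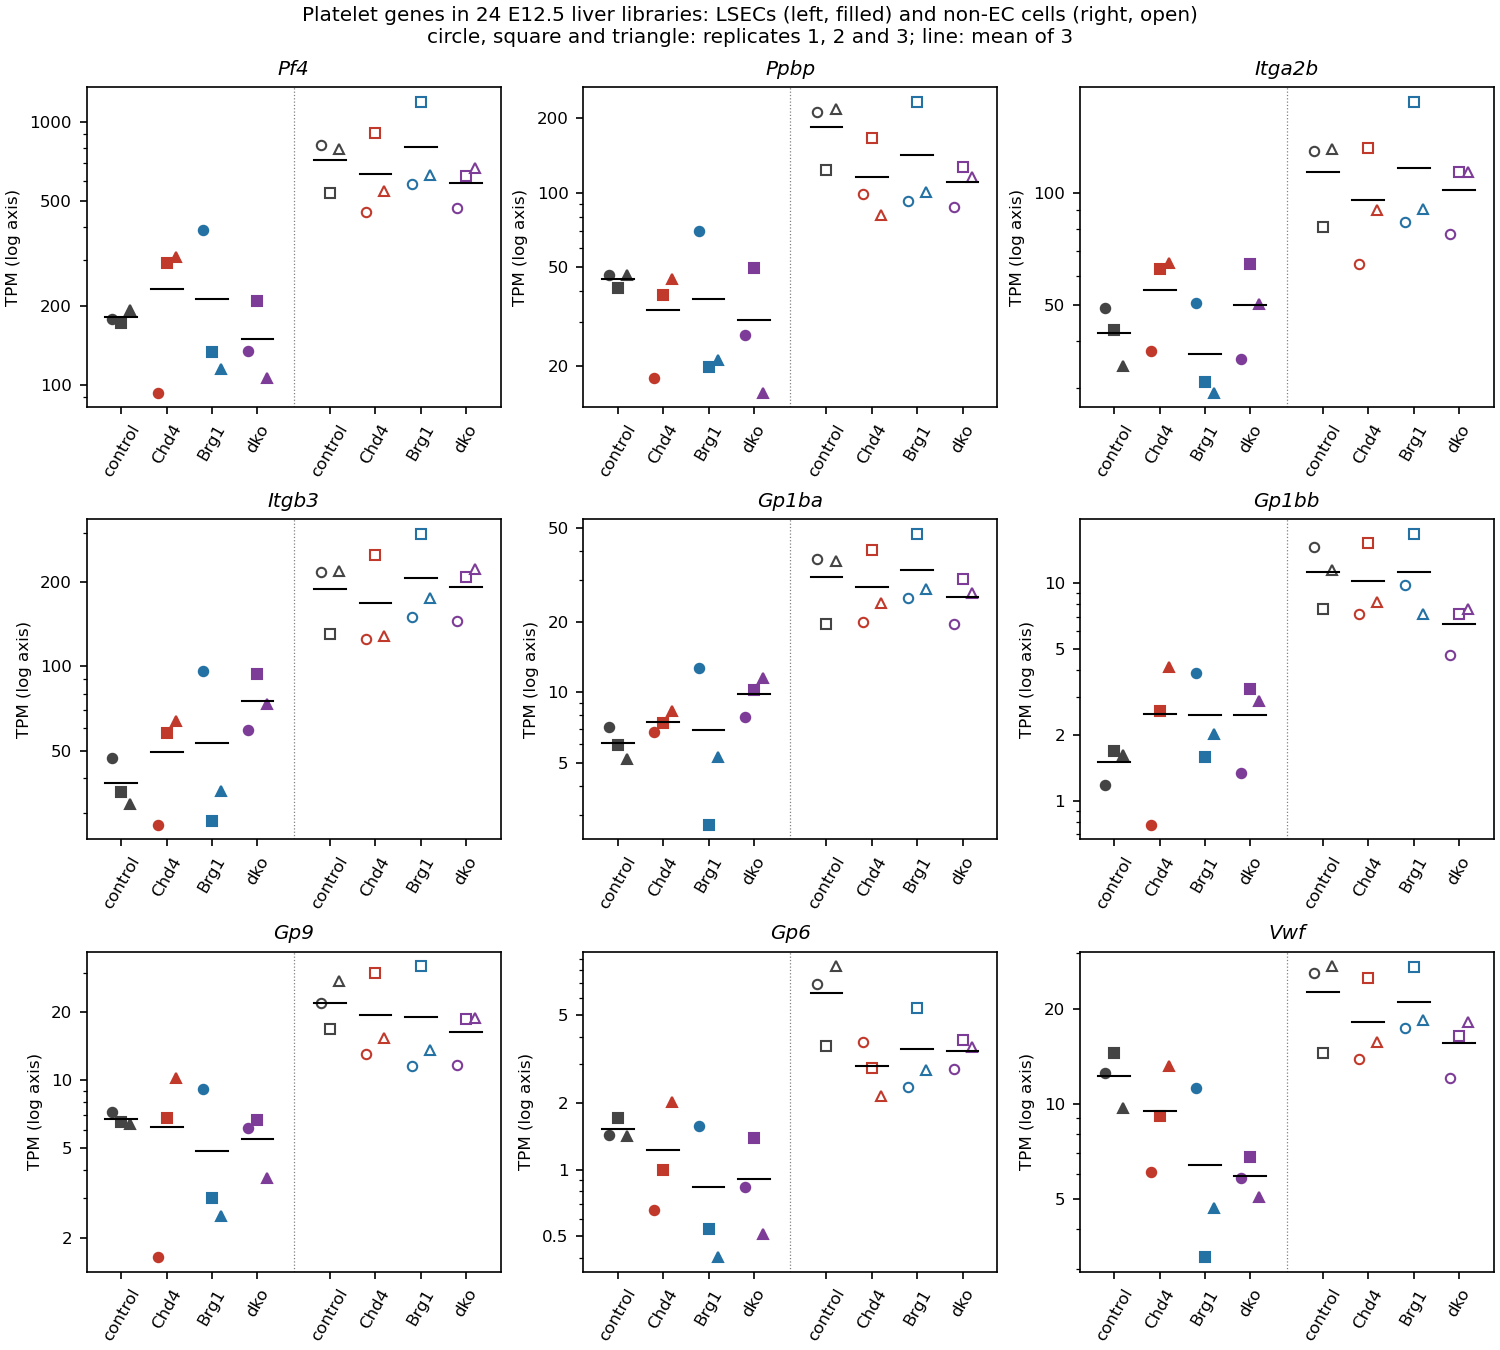
Level of each gene in TPM on a log axis in every library, with filled symbols for LSECs and open symbols for non-EC cells. Circles, squares and triangles are replicates 1, 2 and 3 of each genotype and the line is their mean. In the controls every LSEC point lies below every non-EC point, and LSEC Brg1-ECko replicate 1 (blue circle) lies above its group for all 9 genes.

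In the order of levels, control non-EC cells read Pf4, Itgb3, Ppbp, Itga2b, Gp1ba, Vwf, Gp9, Gp1bb, Gp6, with means from 715 down to 6.30 TPM. The neighbours Itgb3 (190 ± 51.1 TPM, SD, n = 3) and Ppbp (184 ± 53.2 TPM) did not differ beyond their spread, nor did Vwf (22.6 ± 7.04 TPM) and Gp9 (22.1 ± 5.33 TPM). In control LSECs Ppbp, Itga2b and Itgb3 were close together at 44.8 ± 3.02, 42.2 ± 7.49 and 38.3 ± 7.77 TPM. Vwf ranked next there at 12.2 ± 2.41 TPM, above Gp9 (6.73 ± 0.444 TPM) and Gp1ba (6.09 ± 0.954 TPM).

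The other platelet genes had the same direction for the most part in this comparison. Of 14 megakaryocyte transcription factor and thrombopoietin signalling genes, 10 passed as lower and 2 as higher in control LSECs, with Nfe2, a factor of late megakaryocytes, at 3.74 against 38.3 TPM. Of 19 further platelet receptor and signalling genes 13 were lower and 3 higher, with Fermt3, an integrin activator, at 38.3 against 225 TPM. Of 15 tested granule, enzyme and cytoskeleton genes 10 were lower and 3 higher. Thbs1, an adhesive granule protein, had 35.1 against 195 TPM, while Myl9, a myosin light chain also used by smooth muscle and mesenchyme, had 114 against 34.6 TPM. The median log2 differences of these lists were -1.76, -1.05 and -1.23, beside -1.95 for the 9 members and -0.09 over all genes tested.

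Marker genes of other cell kinds differed between the fractions in the same libraries. Hepatoblast genes were lower in control LSECs (8 of 9 passed, median -1.70, mean of log2(TPM + 1) 6.90 to 7.64 against 8.62 to 8.76), and so were red blood cell genes (12 of 13 passed, median -2.90). Myeloid genes were mixed, with 11 of 22 higher and 4 lower. Of 6 mesenchymal genes all 6 were higher in control LSECs (median 4.64), with a summed level of 637 to 755 TPM against 12.8 to 26.8 TPM in control non-EC cells. Their part in the difference of the 9 genes was not tested.

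In Chd4-ECko LSECs none of the 9 genes was called against control LSECs, where 0.521% of 13444 genes tested were DEGs. All 9 adjusted p-values were 1.0 by limma, none had an unadjusted p under 0.05 (6.49% of all genes did), and every gene's values overlapped those of the controls, whereas 12.3% of all genes did not overlap. The fold changes had no common sign: 5 were above 0 and 4 below, with a median of 0.17 beside 0.01 over all genes.

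For Pf4 the 3 Chd4-ECko LSEC libraries had 93.4, 292 and 308 TPM, beside the control values of 172 to 193 TPM. Replicate 1 was below and replicates 2 and 3 were above all controls, and the log2 fold change was 0.17 (95% interval -0.81 to 1.15). Itga2b had 37.7, 62.7 and 64.8 TPM against 34.3 to 49.2 TPM (0.35, interval -0.21 to 0.91), and Itgb3 had 27.1, 58.0 and 63.6 TPM against 32.2 to 47.1 TPM (0.29, interval -0.54 to 1.13). For both, replicates 2 and 3 again lay above every control. Ppbp had 17.7, 38.5 and 44.7 TPM against 41.3 to 46.5 TPM, so that replicate 1 was far below the controls and the others at their level or under it (-0.50, interval -1.50 to 0.50). The intervals of these neighbouring chemokine genes overlap.

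The receptor chains of the von Willebrand factor complex gave 6.77, 7.41 and 8.32 TPM for Gp1ba (0.27, interval -0.46 to 0.99), 0.774, 2.59 and 4.11 TPM for Gp1bb (0.36, interval -0.40 to 1.12) and 1.65, 6.83 and 10.2 TPM for Gp9 (-0.33, interval -1.32 to 0.66). Replicate 1 was the lowest of its group for all 9 genes and was under every control for 7 of them, all but Itga2b and Gp1ba. Gp6 had 0.657, 0.994 and 2.03 TPM (-0.22, interval -0.82 to 0.38) and Vwf had 6.07, 9.13 and 13.2 TPM against 9.71 to 14.5 TPM (-0.38, interval -1.09 to 0.33). The upper ends of the intervals lie under a log2 fold change of 1 for 6 of the 9 genes (Ppbp, Itga2b, Gp1ba, Gp9, Gp6 and Vwf) and above it for Pf4, Itgb3 and Gp1bb. Without Chd4-ECko replicate 1 they lie under it for 3 (Ppbp, Gp6 and Vwf).

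Replicate 1 carried much of this spread. It had the lowest summed level of the 9 genes of all 12 LSEC libraries, 192 TPM beside 478 and 519 TPM in replicates 2 and 3 and 322 to 350 TPM in the controls, and the highest mitochondrial share, 31.5% beside 20.4% and 14.1%. The part of the mitochondrial share in the difference was not tested. Without that library Pf4 was at 0.73 (adjusted p = 0.852), Itgb3 at 0.67 (0.873), Gp1bb at 0.79 (0.506) and Itga2b at 0.60 (0.598), and again none of the 9 passed. Without replicate 3, in turn, Pf4 was at -0.13 and Gp9 at -0.76.

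**Figure D2:**
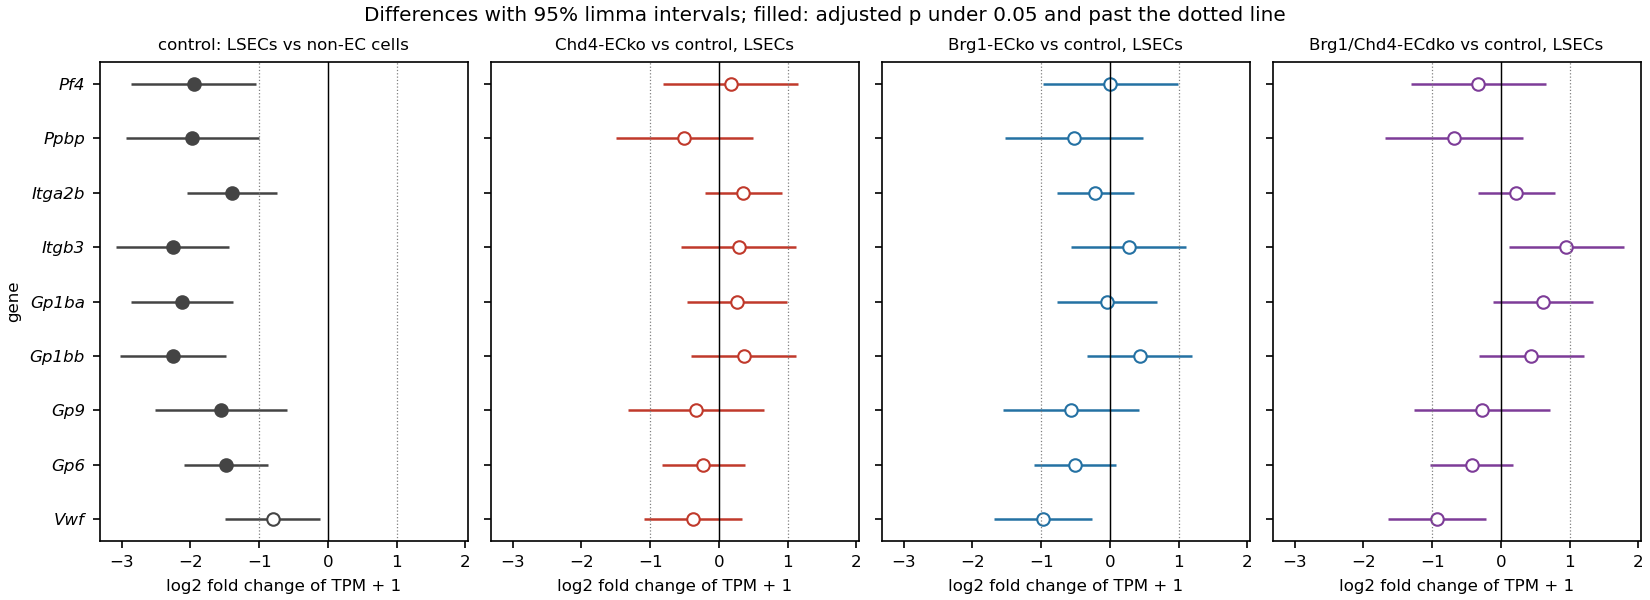
Log2 fold change of TPM + 1 for each gene (points) with its 95% limma interval (lines) in 4 comparisons. Filled points are DEGs and dotted lines mark the fold threshold. In control LSECs against control non-EC cells 8 of 9 points are filled, and in the 3 mutant comparisons none is.

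Some other blood cell genes passed the test in the same libraries. Among 22 myeloid genes 21 had a positive fold change, the median was 0.88, and 3 were called: Cx3cr1, a macrophage chemokine receptor, at 48.6 against 15.0 TPM, Spi1, the myeloid transcription factor PU.1 gene, at 22.5 against 9.79 TPM, and Fcgr3, an antibody receptor, at 74.6 against 26.9 TPM. Of 14 genes expressed across blood cells all 14 were positive with a median of 1.06 and 5 were called, among them Laptm5, a lysosomal protein of blood cells, at 61.8 against 24.5 TPM. Red blood cell genes had a median of 0.64 and none of 13 passed. The median of the 9 members was 0.17, and the difference between the lists was not tested.

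Of the other platelet lists, no gene of the 14 transcription factor and thrombopoietin genes passed. Their fold changes were positive for 12, 4 had an unadjusted p under 0.05, and their median was 0.39, with Nfe2 at 7.44 against 3.74 TPM (adjusted p = 0.23) and Gata2, a progenitor factor, at 13.5 against 8.84 TPM (0.304). Of the 19 further receptor and signalling genes 2 were DEGs, Plcg2 (22.3 against 10.05 TPM) and Fcer1g (108 against 48.7 TPM), and Lcp2 (19.1 against 9.69 TPM) passed on the adjusted p alone with a log2 fold change of 0.90, where 0.707% of all genes had an adjusted p under 0.05. These encode a phospholipase, the signalling chain that Gp6 uses and an adaptor, and all of them act in myeloid cells too. Of the 15 tested granule, enzyme and cytoskeleton genes only F13a1 passed, at 44.5 against 9.29 TPM. F13a1 encodes the clot-stabilising factor XIII A chain, which macrophages also express. The medians of the receptor and granule lists were 0.35 and 0.15.

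**Figure D3:**
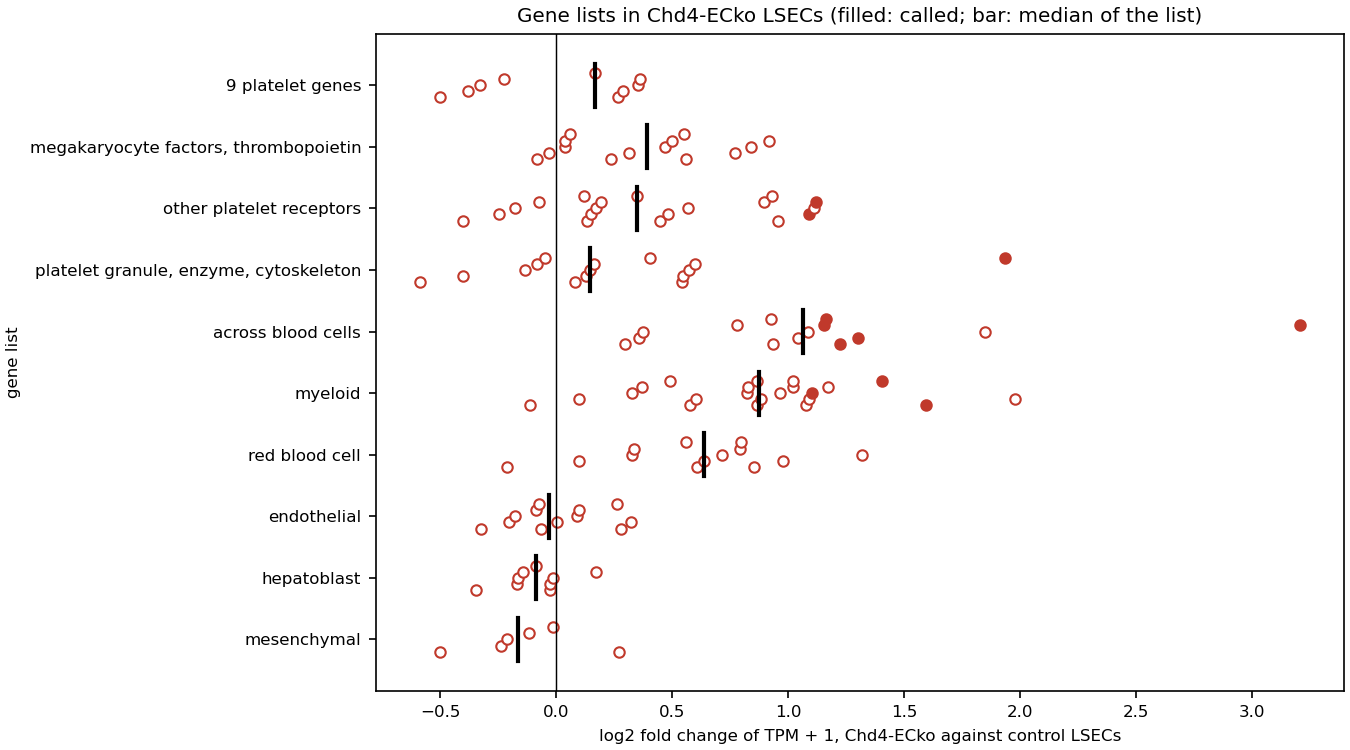
Log2 fold change of TPM + 1 in Chd4-ECko against control LSECs for each gene of 10 lists, with filled points for DEGs and a bar at each list's median. The 9 platelet genes spread from -0.50 to 0.36 with a median of 0.17, and the myeloid genes and the genes expressed across blood cells have medians of 0.88 and 1.06.

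In Brg1-ECko LSECs none of the 9 genes was called, where 0.0149% of all genes tested (2 genes) were DEGs. By limma 1 of the 9, Vwf, had an unadjusted p under 0.05, a share near the 9.68% of all genes that did. With all 3 libraries 3 of the 9 fold changes were positive, Gp1bb (0.43), Itgb3 (0.27) and Pf4 (0.01), and 6 were negative, Gp1ba (-0.04), Itga2b (-0.21), Gp6, Ppbp (-0.52), Gp9 (-0.57) and Vwf. Vwf was at 11.2, 3.26 and 4.68 TPM in the Brg1-ECko libraries against 12.5, 14.5 and 9.71 TPM in controls, so replicates 2 and 3 were below every control and replicate 1 was among them. The log2 fold change was -0.97 (SE 0.33, unadjusted p = 0.011, adjusted p = 0.413, limma). Gp6 had 1.58, 0.539 and 0.402 TPM against 1.42 to 1.71 TPM, with the same library apart (-0.51, SE 0.28, adjusted p = 0.587).

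The exception in both cases was the library with high Afp. Its summed level of the 9 genes was 644 TPM, beside 223 and 216 TPM in replicates 2 and 3, and for every member it was the highest of the 3. Its LSEC levels were 39.2% to 78.4% of those in the same-numbered non-EC library, where replicates 2 and 3 gave 5.78% to 32.0%. Without it Vwf was at -1.41 (adjusted p = 0.111), Ppbp at -1.10 (0.667), Gp9 at -1.04 (0.898) and Gp6 at -0.78 (0.667), and none of the 9 passed. Gp1ba was at -0.54 and Itga2b at -0.46 without it, Pf4 and Itgb3 changed sign to -0.54 and -0.25, and Gp1bb stayed positive at 0.17. All 12 endothelial genes also had negative fold changes in Brg1-ECko LSECs over the 3 libraries (median -0.46, none passed, 7 with an unadjusted p under 0.05 by limma). All 9 hepatoblast genes had positive ones (median 1.04, none passed, 9 with such a p), and 9.68% of all genes had such a p. The mean log2(TPM + 1) of the hepatoblast genes was 9.40 in replicate 1, 7.63 and 7.67 in replicates 2 and 3, and 6.90 to 7.64 in controls. For the endothelial genes it was 5.94, 6.27 and 6.62, against 6.51 to 6.85 in controls. The medians without replicate 1 were not taken. The part of both lists in the lower Vwf was not tested.

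In Brg1/Chd4-ECdko LSECs none of the 9 genes was called either, where 0.565% of all genes were DEGs, and 2 of 9 (Itgb3 and Vwf) had an unadjusted p under 0.05 by limma, beside 12.1% of all genes. The values of 4 of 9 did not overlap with controls, beside 23.1% of all genes. In this comparison 20.8% of all genes were higher and 2.29% lower without overlap, and the median of all genes was 0.155. Itgb3 and Gp1ba were the higher ones and Vwf and Gp6 the lower ones.

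Itgb3 had 59.2, 93.6 and 73.4 TPM in Brg1/Chd4-ECdko LSECs, each above the 32.2 to 47.1 TPM of controls, a log2 fold change of 0.95 (SE 0.39, unadjusted p = 0.0282, adjusted p = 0.349). Its partner Itga2b did not show this, with 35.8, 64.5 and 50.3 TPM against 34.3 to 49.2 TPM. Gp1ba had 7.89, 10.2 and 11.5 TPM, each above the 5.21 to 7.10 TPM of controls (0.61, SE 0.34, adjusted p = 0.467).

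Vwf had 5.83, 6.80 and 5.08 TPM in Brg1/Chd4-ECdko LSECs, each under the 9.71 to 14.5 TPM of controls. The log2 fold change was -0.93 (SE 0.33, unadjusted p = 0.0141, adjusted p = 0.27, limma). Gp6 had 0.833, 1.39 and 0.510 TPM (-0.42, SE 0.28, adjusted p = 0.518), and its highest library nearly reached the lowest control. Ppbp was lower in mean, at 26.6, 49.7 and 15.5 TPM, with replicate 2 above all controls (-0.68, SE 0.47, adjusted p = 0.527).

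Some genes of other lists passed the test in the same comparison. Of 14 genes expressed across blood cells 5 were DEGs, all higher, and all 14 fold changes were positive (median 0.83), with Laptm5 at 50.8 against 24.5 TPM. Of the 14 megakaryocyte transcription factor and thrombopoietin genes all 14 were positive (median 0.60) and 2 had an adjusted p under 0.05, Gata2 and the kinase gene Jak2, both inside the fold threshold, where 0.87% of all genes had such a p. Jak2 was named after its values were seen. Of the 19 further receptor and signalling genes 2 had such a p (Plcg2, at 31.2 against 10.05 TPM, and Lcp2), and none of the 15 granule genes did. None of 22 myeloid genes (21 positive, median 0.57), 9 hepatoblast genes (9 positive, median 0.43), 12 endothelial genes (median -0.19), 13 red blood cell genes or 6 mesenchymal genes passed. The part of these lists in the values of Itgb3, Gp1ba and Vwf was not tested.

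The p-values of Itgb3 and Vwf depended on which libraries set the spread. The fit above took it from all 12 LSEC libraries, the variable Chd4-ECko and Brg1-ECko groups included. When only the 6 control and Brg1/Chd4-ECdko libraries were fitted, the adjusted p by limma was 0.0104 for Itgb3 and 0.0151 for Vwf. The fold changes were the same and lie inside the fold threshold. DEGs over all genes numbered 133 in this fit, beside 76 in the fit above. The share of all genes with an adjusted p under 0.05 in it was not taken, so nothing is read from these p-values. Against Chd4-ECko LSECs no member of the Brg1/Chd4-ECdko LSECs was called, had an unadjusted p under 0.05 by limma or was free of overlap, where 0.0372% of all genes were DEGs, 10.4% had such a p and 15.9% did not overlap.

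The level of each gene was also set against the other 8 members of the same library, as its log2(TPM + 1) minus their mean. This measure was made after the values had been seen and carries no test. On it 3 of 9 genes did not overlap with control LSECs in Chd4-ECko, 4 did not in Brg1-ECko and 6 did not in Brg1/Chd4-ECdko LSECs, beside 4.02%, 9.54% and 10.7% of all genes tested when these were set against the mean of the 9. The references differ (the other 8 for a member, all 9 for another gene), and the shares of all genes move with the level of the 9 themselves, so they are only set side by side and nothing is read from them. The counts and the genes depended on the reference. With a pseudocount of 0.1 TPM they were 2, 5 and 6, beside 4.26%, 9.5% and 10.7% of all genes. Against the median of the other 8 they were 4, 4 and 4, beside 14%, 31.7% and 47.2% of all genes. A member that is higher also makes the others lower on this measure, since each is part of the reference of the rest. None of the 9 was free of overlap with control in Chd4-ECko LSECs under all 3 of these settings. Itgb3, Vwf and Gp1bb, whose values are uncertain, were so in Brg1-ECko, and Itgb3, Gp1ba and Vwf in the double mutant. The share of all genes free of overlap under all 3 settings was not taken, so nothing is read from this either. Without LSEC Brg1-ECko replicate 1 the count for Brg1-ECko was 5, Ppbp being added, and 93% of all genes did not overlap. The mean log2(TPM + 1) of the 9 was 3.25 and 3.39 in the libraries left, against 3.89 to 4.06 in control LSECs, which shifts every other gene on this measure. With the mean and 1 TPM, Vwf was the gene that did not overlap with control LSECs, as lower, in all 3 mutants. For Vwf it was -0.52 to -0.05 in control LSECs, -0.94 to -0.53 in Chd4-ECko LSECs, -1.31 to -0.99 in Brg1-ECko LSECs, and in the double mutant -1.51 to -1.11. In non-EC cells it was -1.59 to -1.16 over all 12 libraries and -1.45 to -1.32 in the controls. With this setting every control LSEC library lay above every mutant LSEC and non-EC library. The margin to Chd4-ECko was very small, with replicate 1 at -0.527 and control replicate 3 at -0.524. With a pseudocount of 0.1 TPM in place of 1 the Chd4-ECko range (-0.86 to -0.34) overlapped that of the controls (-0.43 to 0.07), and those of the other mutants did not. The Brg1-ECko and Brg1/Chd4-ECdko LSECs lay at or near the non-EC range, LSEC Brg1-ECko replicate 1 included.

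For Itgb3 the same measure was 1.31 to 1.72 in control LSECs and 2.42 to 2.78 in Brg1/Chd4-ECdko LSECs, beside 2.02 to 2.03 in control non-EC cells and 2.46 to 2.59 in Brg1/Chd4-ECdko non-EC cells. Of the Chd4-ECko LSECs (1.71 to 1.92) 1 library lay within the control range and 2 above it, and the Brg1-ECko LSECs (1.80 to 2.25) lay above it. Ppbp was 1.57 to 1.89 in control LSECs, 1.05 to 1.27 in Chd4-ECko LSECs and 0.34 to 1.53 in Brg1/Chd4-ECdko LSECs. Against the median of the other 8 both mutants overlapped the controls (1.34 to 2.10 and 0.92 to 2.44 against 1.97 to 2.41). By the mean, Gp1bb was higher than control without overlap in Chd4-ECko and Brg1-ECko LSECs and Gp1ba in Brg1/Chd4-ECdko LSECs, while Gp9 was lower in Brg1-ECko and Pf4 and Gp6 in Brg1/Chd4-ECdko LSECs. Of these, Gp1bb in Chd4-ECko overlapped control with the smaller pseudocount, and Gp9, Pf4 and Gp6 did against the median. Itga2b overlapped with control in all 3 by the mean, but against the median it was 2.38 to 2.79 in Chd4-ECko LSECs and 1.99 to 2.25 in controls.

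**Figure D4:**
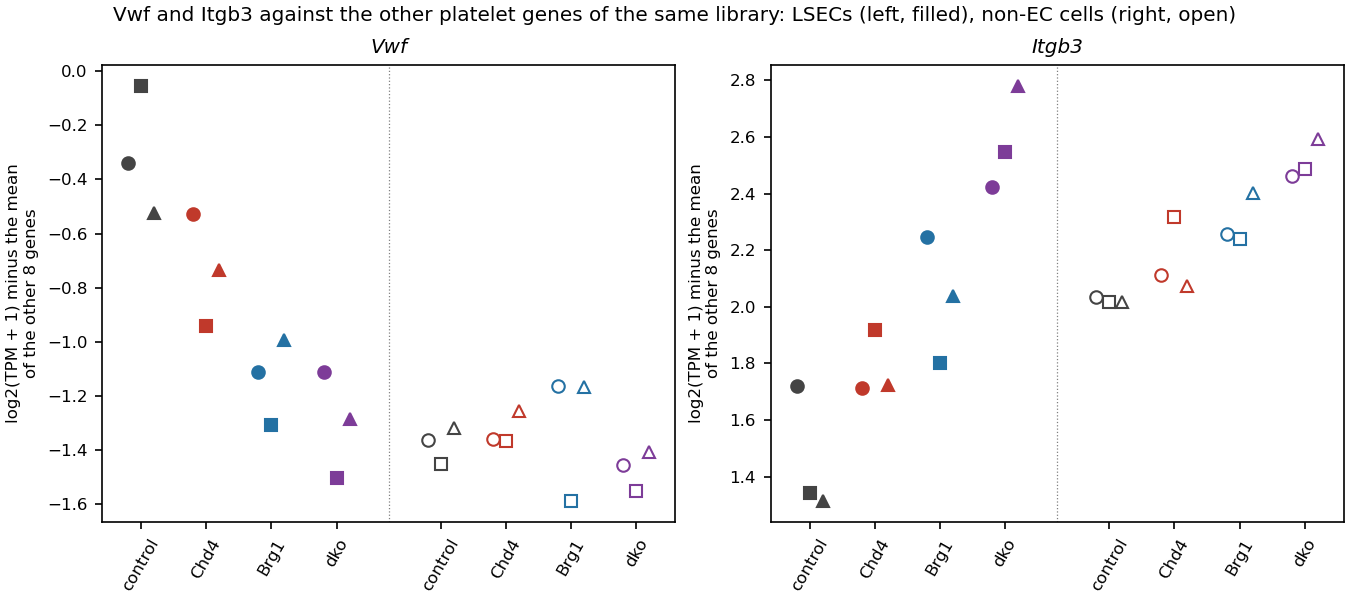
Level of Vwf (left panel) and Itgb3 (right panel) in each library as log2(TPM + 1) minus the mean of the other 8 genes, for LSECs (filled) and non-EC cells (open), with symbols as in the plot of TPM levels. With the pseudocount of 1 TPM, Vwf is -0.52 to -0.05 in control LSECs and lower in all other libraries (with 0.1 TPM the Chd4-ECko range overlaps that of the controls), and Itgb3 is 1.31 to 1.72 in control LSECs and 2.42 to 2.78 in Brg1/Chd4-ECdko LSECs.

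In non-EC cells none of the 9 genes was called in any mutant, where DEGs were 0.884% of 12223 genes tested for Chd4-ECko, 1.37% for Brg1-ECko and 0.115% for Brg1/Chd4-ECdko. All 9 had negative fold changes in Chd4-ECko non-EC cells (median -0.24, all genes 0.005) and 8 of 9 in Brg1/Chd4-ECdko non-EC cells (median -0.41), while in Brg1-ECko non-EC cells 6 were negative and 3 positive (median -0.03). Of all 12223 genes, 6032 were negative for Chd4-ECko, 5734 for Brg1/Chd4-ECdko and 5820 for Brg1-ECko. The 3 comparisons share the same controls and the 9 genes varied together, so these signs are not independent. Pf4, for example, had 455, 906 and 547 TPM in Chd4-ECko non-EC cells, 580, 1196 and 630 TPM in those of Brg1-ECko, and 472, 622 and 669 TPM in the double mutant, all overlapping the 537 to 816 TPM of the controls.

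Gp6 was the member with the smallest p in each of the 3, and the only 1 of 9 with an unadjusted p under 0.05 by limma. Of all genes 33.9%, 28% and 11.7% had such a p, so the members' count is not above the background. It had 3.78, 2.89 and 2.16 TPM in Chd4-ECko non-EC cells, 2.37, 5.41 and 2.81 TPM in those of Brg1-ECko, and 2.85, 3.88 and 3.60 TPM in the double mutant, against 6.92, 3.64 and 8.34 TPM in controls. Of the 9 mutant libraries 6 were below every control, but each group overlapped through non-EC control replicate 2. The log2 fold changes were -0.85 (adjusted p = 0.0789), -0.69 (0.156) and -0.66 (0.41). Of 9 hepatoblast genes 7, 8 and 0 passed as higher in the same comparisons, and their mean log2(TPM + 1) was 8.93 to 9.83 in the mutant libraries against 8.62 to 8.76 in controls. Their part in the levels of Gp6 and the other members was not tested.

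The difference between the genotype effect in LSECs and that in non-EC cells was tested as an interaction in a model of all 24 libraries. This model did not pair same-numbered libraries. None of the 9 genes was called for Chd4-ECko, Brg1-ECko or Brg1/Chd4-ECdko, where 0.69%, 0.639% and 0.0581% of all genes were. By limma 0, 0 and 1 of 9 had an unadjusted p under 0.05, beside 19.1%, 17.9% and 7.57% of all genes. That one was Gp1bb in Brg1/Chd4-ECdko, with a log2 difference of 1.13 between the fractions (SE 0.52, unadjusted p = 0.0428, adjusted p = 0.644), whose values are uncertain for the reason given above. For Vwf in Brg1-ECko it was -0.90 (SE 0.47, adjusted p = 0.319), and -1.34 (adjusted p = 0.142) without LSEC Brg1-ECko replicate 1.

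The 9 genes varied together from library to library. Pearson's r of log2(TPM + 1) over the 36 pairs of members had a median of 0.63 (0.24 to 0.90) over the 12 LSEC libraries and 0.86 (0.49 to 0.97) over the 12 non-EC libraries. With the mean of each genotype removed, the medians were 0.82 and 0.93. Without LSEC Brg1-ECko replicate 1 the LSEC medians were 0.58 and, with genotype means removed, 0.72. Genes of a library share its preparation and its total, so these values describe the libraries and carry no test.

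The mean of the 9 genes was also set against the means of the other lists, with genotype means removed. Over the 12 LSEC libraries r was 0.98 with the granule, enzyme and cytoskeleton genes and 0.95 with the other receptors, and without LSEC Brg1-ECko replicate 1 it was 0.96 and 0.89. Other values moved more when that library was left out: from 0.66 to 0.28 with the transcription factors, from 0.57 to -0.22 with the hepatoblast genes, from -0.03 to 0.35 with the myeloid genes, from -0.36 to 0.23 with the mesenchymal genes and from -0.37 to 0.26 with the endothelial genes. With the genes expressed across blood cells r was 0.71, and 0.62 without it, and with the red blood cell genes 0.37 and 0.31. In the 12 non-EC libraries r was 0.99 with the other receptors, 0.94 with the transcription factors, 0.87 with the granule genes, 0.83 with the genes expressed across blood cells, 0.80 with the endothelial genes, 0.07 with the myeloid genes, 0.06 with the mesenchymal genes, -0.20 with the red blood cell genes and -0.65 with the hepatoblast genes.

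**Figure D5:**
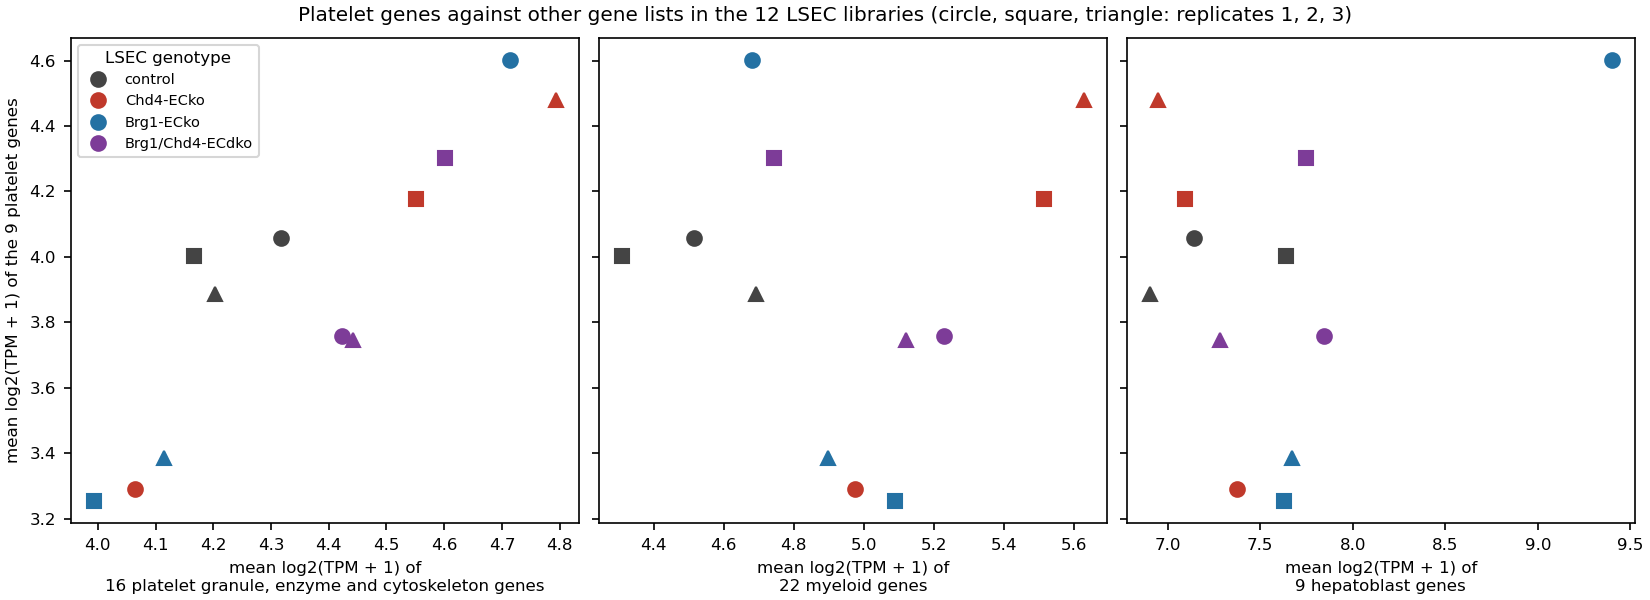
Mean log2(TPM + 1) of the 9 platelet genes (vertical axis) against that of the platelet granule, enzyme and cytoskeleton genes, the myeloid genes and the hepatoblast genes (horizontal axes) in the 12 LSEC libraries, coloured by genotype, with a circle, square or triangle for replicate 1, 2 or 3. The points rise together in the left panel (r = 0.88, and 0.86 without LSEC Brg1-ECko replicate 1), do not in the middle panel (r = 0.003, and 0.13 without it), and LSEC Brg1-ECko replicate 1 stands alone at the right of the third panel.

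Genes with the most similar pattern were listed for 3 members by Pearson's r. In LSECs the 5 nearest to Pf4 were Ppbp (0.88), Alox12 (0.87), Gp9 (0.86), Gp5 (0.85) and Stx11 (0.84), of which Alox12 encodes the platelet lipoxygenase and Gp5 a further subunit of the von Willebrand factor receptor. Those nearest to Itga2b were Smim3, Tmem40, Rasgrp2, Ptpmt1 and Lmo2 (0.90 to 0.85), with no other member among the nearest 50. Those nearest to Vwf were Mmrn1 (0.92), Gp6 (0.90), Cmtm8, Cd226 and Alox12, where Mmrn1 encodes multimerin, a protein stored by both platelets and endothelium. In non-EC cells the nearest to Pf4 were Gp1ba (0.97), P2rx1, Cnn2, Itga2b and Ppp1r14a, to Itga2b Tmsb10 (0.97), Rsu1, Pf4, P2rx1 and Rasa3, and to Vwf Mpig6b (0.99), Ppp1r14a, Alox12, Gp1ba and Cnn2. Each list rests on 12 libraries, and those of LSECs depended on LSEC Brg1-ECko replicate 1: without it 2 of the 5 nearest to Pf4 (Alox12, Gp9), 3 of those to Itga2b (Smim3, Tmem40, Rasgrp2) and 1 of those to Vwf (Mmrn1) were again among the 5.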

How the data were processed

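RNA-seq libraries were prepared from CD146+ LSECs and non-EC cells of E12.5 livers after poly-A selection. The deposited values were TPM per gene, made by the authors in CLC Genomics Workbench against GRCm39 (mm39) after trimming of repeated guanines, and each library summed to the same total, so that the read depth was not recoverable. How reads from overlapping genes or strands were assigned is not given in the sources used here. The 8 columns of the authors' group means were not used.

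Groups came from the labels. TPM values were tested as log2(TPM + 1) with limma 3.58.1 in R 4.3.3 with a variance trend, in a model of the 12 libraries of a fraction or of all 24 across fractions, keeping genes that reached 1 TPM in 3 or more libraries. P-values were adjusted by Benjamini-Hochberg over all genes tested, and DEGs had an adjusted p under 0.05 and a log2 fold change beyond 1. The code was tested on simulated data. The study shows each point of a fraction as a separate embryo, and both fractions were split from the same digested livers, so the 24 libraries may stem from 12 embryos. The labels do not state this, so p-values measure the spread between these libraries. Depth could not set the precision, which rests on 3 libraries per group.

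The 9 members and the gene lists were chosen with earlier results of these data known. Named genes outside the 9 were, per list, the 3 with the smallest p in Chd4-ECko against control LSECs or in control LSECs against control non-EC cells, and the 5 nearest in pattern to Pf4, Itga2b and Vwf. A gene that both parts of this rule name counts under both. Chd4, Smarca4 and Septin5 were named as checks, and Slc25a11 and Gm49601 were added after their positions and values were seen. Gene positions, and the promoter windows of 250 bases before the start site of each canonical transcript, were read from the GRCm39 genome and its GENCODE annotation, in which 25335 of 25361 table identifiers were found.

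Pairing was checked by correlating each library's deviations from its group mean over genes. Within a genotype, LSEC and non-EC libraries with equal numbers correlated at 0.12 to 0.41 in all 12 pairs. The main fits, those of the interactions included, did not pair these libraries. Pairing by an embryo block was an alternative for comparisons between fractions. Alternatives were a pseudocount of 0.1 TPM, no filter or one on a mean of 5 TPM or more, quantile normalization, TPM rescaled without mitochondrial genes and without mitochondrial and globin genes, no variance trend, replicate and embryo blocks, only the groups compared, no fold threshold, and each library left out.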

Additional observations from a re-analysis of the deposited data

How the results depend on the processing

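The count of the 9 members called stayed at 0 in all 10 comparisons other than control LSECs against control non-EC cells, under every alternative and with each library left out. In control LSECs against control non-EC cells it was 8, with 7 when genes under a mean of 5 TPM, Gp6 among them, were dropped, 9 without the fold threshold, and 8 to 9 with a library left out. Across genotypes of a fraction, 13 of 18 same-numbered LSEC pairs and 10 of 18 non-EC pairs correlated above 0.1. Of differently numbered pairs 8 of 36 did so in each fraction. The mean r was 0.171 and 0.127 for same-numbered pairs and -0.085 and -0.067 for the others. The main fits held no term for the replicate number. With it as a block, the counts of members were 0 in the 10 comparisons and 8 in the other. DEGs over all genes then went from 70 to 87 for Chd4-ECko LSECs, from 2 to 5 for Brg1-ECko LSECs and from 76 to 92 for Brg1/Chd4-ECdko LSECs. The embryo block changed the call of no member as a DEG. In Chd4-ECko against control LSECs the log2 fold change of Pf4 ranged from -0.13 to 0.73 with a library left out (-0.13 without Chd4-ECko replicate 3, -0.09 without replicate 2) and that of Gp9 from -0.76 to 0.28 (0.28 without replicate 1). DEGs among all genes in that comparison numbered 45 to 104 under the alternatives, and 28 (without Chd4-ECko replicate 3) to 147 (without replicate 1) with a library left out. For Brg1/Chd4-ECdko against control LSECs they numbered 46 (quantile normalization) to 133 (only the groups compared), and 24 (without Brg1/Chd4-ECdko replicate 3) to 117 (without Brg1-ECko replicate 1) with a library left out. Against Chd4-ECko LSECs they went from 5 to 52 with only the groups compared, and to 0 without Chd4-ECko replicate 1 and 11 without Brg1-ECko replicate 1. The level of Vwf relative to the other members, under alternatives chosen after seeing the data, was -0.43 to 0.07 in control LSECs, -0.86 to -0.34 in Chd4-ECko LSECs, which then overlapped the controls, and -1.51 to -1.05 in Brg1/Chd4-ECdko LSECs with a pseudocount of 0.1 TPM. Against the median of the other 8 it was -0.55 to -0.10, -0.85 to -0.67 and -1.61 to -1.20, without overlap. Gp1bb and Gp6 were near 1 TPM in LSECs, where the pseudocount narrows fold changes, and without depth a small difference in them cannot be bounded.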
